A study of Mus musculus with 5 samples.

Results

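After 24 h with Fanchinoline, 13 of 23 hypoxia targets, 5 of 14 genes of glucose uptake and upper glycolysis and 3 of 11 genes of fatty acid synthesis were at least 2-fold above the vehicle control in MutuDC cells, with no member of these lists 2-fold below it. Of all 8768 genes tested, 2.87% were called higher and 1.21% lower. After adjustment for transcript length and GC content, the counts called higher in the 3 lists were 13, 5 and 1. Asparagine synthetase, the stress gene Nupr1 and both apolipoprotein L genes that reached 10 CPM were more than 2-fold below the vehicle control. MutuDC is an immortalised line of mouse cDC1 cells, the dendritic cells that present antigen from dead cells to CD8 T cells. The comparison takes 1 library of cells after 24 h with the compound over 1 library labelled vehicle control, which stands for 0 h. Members are the genes with 10 or more CPM (counts per 1000000 of the scaled library) in either library, which held for 8768 of the 53700 genes in the table. Both cell samples are of the same line with no genotype change named in the labels, and the compound's name is spelled here as the labels spell it. The design text calls the control untreated, so whether it received the solvent is not settled, and no dose is stated there or in the labels. Cells after 2, 6 and 12 h with the compound, 1 library each, are shown as levels beside the 2 libraries compared.

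Some background helps in reading the groups. Cells sense oxygen through prolyl hydroxylases that mark HIF transcription factors for destruction, and when these enzymes slow, HIF accumulates and raises genes for glucose uptake, glycolysis and mitochondrial turnover. Falling sterol levels in the endoplasmic reticulum release SREBP factors, which raise cholesterol and fatty acid enzymes, while amino acid shortage and other stresses act through the factor ATF4 on amino acid synthesis and transport. Folliculin, TFEB and mTORC1 sense nutrients at the lysosome, and FOXO factors are active when growth factor signalling is low.

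The 5 libraries held 33568526 to 42854511 counts, and 10 CPM stood for 328 counts in vehicle and 427 at 24 h. Ratios are log2 ratios of TMM-scaled CPM with a prior count of 2. A gene was called when its ratio was at least 1 in size, which is 2-fold, and its 95% exact interval (Clopper-Pearson) excluded no difference. The interval removed none of the 358 genes past 2-fold, so the calls rest on size alone. With 1 library per side there is no replicate spread and no p-value; the intervals reflect counting error alone. Exposure and hours in culture cannot be told apart, since the only library without the compound stands for 0 h, nor can fewer cells of a kind and less RNA per cell. Defining dendritic cell genes were present in both libraries: Itgax (CD11c) stood at 733 CPM in vehicle and 746 at 24 h, Xcr1 at 327 CPM in vehicle and 298 at 24 h and Clec9a at 237 CPM in vehicle and 251 at 24 h. Other markers of this set had log2 ratios below 0: Cd8a (-1.24), Cd74 (-0.81), H2-Ab1 (-0.78), Batf3 (-0.72), Flt3 (-0.58), Zbtb46 (-0.39) and Irf8 (-0.38). Cadm1 (0.34) and Wdfy4 (0.47) were above 0. The 14 markers of B and T cells summed to 2.10 CPM in vehicle and 3.28 at 24 h, and 8 of them were at 0 in both libraries. Markers of fibroblasts and epithelium summed to 17.1 and 20.97 CPM.

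Of the 8768 genes, 358 were called (4.08%), 252 of them higher at 24 h (2.87%) and 106 lower (1.21%). Most genes moved little: 6349 (72.4%) had a ratio within 0.5 of 0, and the median was -0.00066. Only 22 genes had a ratio of 2 or more, and 9 had -2 or less. Scaled by total counts instead of TMM, the median of all genes was 0.10 and the calls were 361 higher and 70 lower, so the share of higher genes among those called went from 70.39% to 83.76%. Directions below are those of the TMM scale. Lower genes named below that were within 2-fold on the total-count scale were Slc6a9, Bcl2a1b, Mrpl38, Rps24, Rps26, Rpl35, Pgls, Ppan and C1qa. Of the higher genes 80 lay under 10 CPM in vehicle, and of the lower genes 47 lay under 10 CPM at 24 h, so these entered the comparison through the library in which they were high. Just inside the 10 CPM limit were 4931414P19Rik (7.35 CPM in vehicle, 10.003 at 24 h), 3110040N11Rik (10.004 and 6.89) and Rnf24 (9.70 and 10.03). Just outside it were Mthfsl (9.97 and 7.80), Gm2423 (5.22 and 9.96) and Gpsm1 (8.97 and 9.96).

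**Figure D1:**
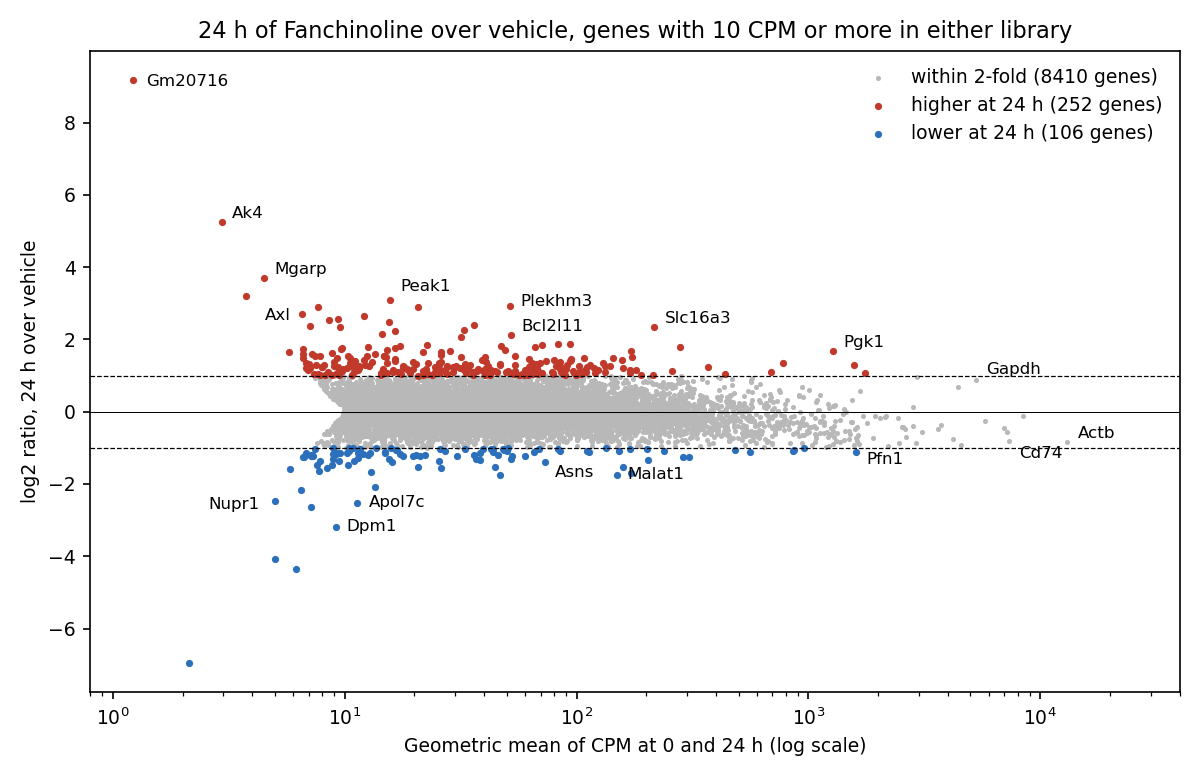
Log2 ratio of 24 h over vehicle (vertical axis) against the geometric mean of the CPM in the 2 libraries (horizontal axis, log scale) for the 8768 genes; each point is a gene, red is higher (252 genes), blue is lower (106 genes), and dashed lines mark 2-fold. Ak4 and Mgarp stand among the highest ratios, and abundant genes such as Actb and Cd74 lie below 0 without reaching the 2-fold line.

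Higher and lower genes differed in transcript length. The median length of the longest annotated transcript was 6466 bases for the higher genes, 1707 for the lower genes and 3442 for all. From the shortest to the longest length quintile, the median ratio was -0.31, -0.16, -0.01, 0.15 and 0.45. After adjusting the ratios for length and GC content, 156 genes were higher (1.78%) and 82 lower (0.936%), and 118 of the 252 and 47 of the 106 remained called. Mitochondrially encoded RNA took 2.58% of counts in vehicle and 1.78% at 24 h. List medians below are given with their length-adjusted value. Genes named below as called whose adjusted ratio was under 1 in size were Lss, Stard4, Acaca, Fasn, Cers4, Tsc1, Rictor, Wdfy3, Atg2b, Ep300, Itpr3, Kdm5a, Tet2, Phc3, Rel, Parp14, Pola1 and Apaf1 among the higher. Among the lower they were Trib3, Chac1, Pgls, Pfn1, Jund, C1qa, Bcl2a1a, Bcl2a1b, Mrps15, Mrpl38, Rpl35, Rps26 and mt-Nd6.

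**Figure D2:**
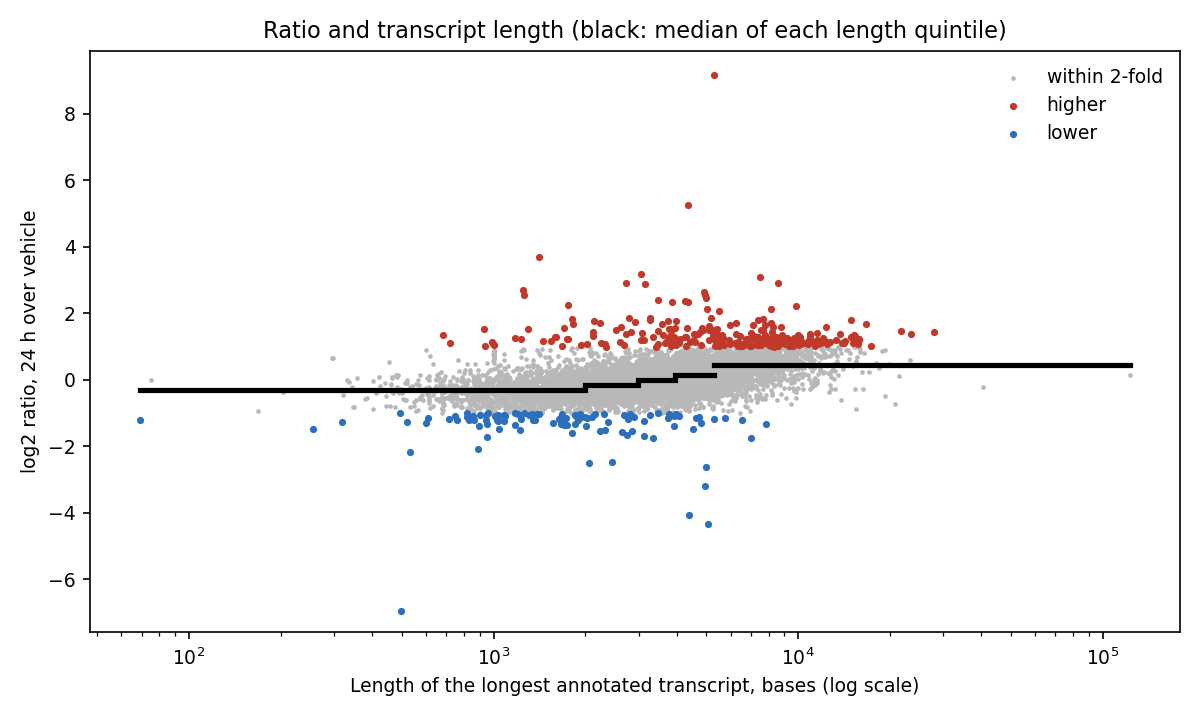
Log2 ratio of 24 h over vehicle (vertical axis) against the length of the longest annotated transcript in bases (horizontal axis, log scale); each point is a gene, red is higher and blue is lower by the call rule, and black bars are the medians of the 5 length quintiles. The medians climb from -0.31 in the shortest quintile to 0.45 in the longest.

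Hypoxia-responsive genes had the highest median of the lists with more than 1 tested gene. Of 23 tested members of the list of hypoxia targets (8 more stayed under 10 CPM), 13 were called higher and 0 lower, with a median of 1.11 (1.23 length-adjusted) against -0.00066 over all genes. Ak4, a mitochondrial adenylate kinase (chr4:101419277-101466995, plus strand, GRCm38), stood at 0.427 CPM in vehicle and at 1.42, 7.09, 14.7 and 18.2 CPM in the 2, 6, 12 and 24 h libraries. Its level was higher in each later library than in the one before, and the ratio was 5.26, interval 4.66 to 6.30. Mgarp, a mitochondrial membrane protein (chr3:51388412-51396738, minus strand), stood at 1.19 CPM in vehicle and at 1.15, 4.97, 12.3 and 16.05 CPM in the 2, 6, 12 and 24 h libraries. Vehicle and 2 h were alike and the 3 later libraries were all higher, with a ratio of 3.70, interval 3.29 to 4.26. P4ha2, a subunit of the enzyme that hydroxylates collagen prolines, stood at 1.19 CPM in vehicle and at 1.90, 7.42, 13.5 and 11.3 CPM in the 2, 6, 12 and 24 h libraries. Its highest level was at 12 h, and the 24 h ratio was 3.19, interval 2.77 to 3.75. Ak4, Mgarp and P4ha2 stood under 10 CPM in vehicle, so they entered the comparison through the 24 h library.

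Mitophagy receptors and the other called targets followed with smaller ratios. Bnip3, which marks mitochondria for removal, stood at 14.9 CPM in vehicle and at 14.7, 54.8, 78.6 and 71.6 CPM in the 2, 6, 12 and 24 h libraries. It was at its vehicle level at 2 h and high from 6 h on, with a 24 h ratio of 2.27, interval 2.13 to 2.41. Its relative Bnip3l had a ratio of 1.78. Slc2a1, the glucose transporter GLUT1, had 1.86 (49.04 CPM in vehicle and 178 at 24 h), and Pdk1, a kinase that switches off pyruvate dehydrogenase, had 1.85 (37.4 CPM in vehicle and 135 at 24 h). The lowest ratios in the list were those of Ankzf1 (0.13), Pfkfb3 (0.16), P4ha1 (0.30) and Plod1 (0.32), none of which was called. Among 9 tested regulators of the pathway, Egln1, the main oxygen-sensing prolyl hydroxylase, was higher (1.34, interval 1.28 to 1.40), as was the coactivator Ep300 (1.08, interval 1.03 to 1.14), while Hif1a itself had 0.38 (249.6 CPM in vehicle and 325 at 24 h).

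HIF binds the core ACGTG or GCGTG, so the 250 bases before each gene's start in the RefSeq promoter table (GRCm38.p6) were searched for these letters on both strands. These starts can differ from the GENCODE gene positions given elsewhere. By GENCODE the whole P4ha2 window and most of the Mgarp window lie inside the gene. The windows of the 5 highest called hypoxia targets, with the cores in capitals, show how many such letters lie close to the start. The windows were Ak4 (chr4:101419039-101419288, plus strand, the first of its 4 in the table), Mgarp (chr3:51396548-51396797, minus strand), P4ha2 (chr11:54100674-54100923, plus strand), Bnip3 (chr7:138909507-138909756, minus strand) and Slc2a1 (chr4:119108495-119108744, plus strand).
Ak4: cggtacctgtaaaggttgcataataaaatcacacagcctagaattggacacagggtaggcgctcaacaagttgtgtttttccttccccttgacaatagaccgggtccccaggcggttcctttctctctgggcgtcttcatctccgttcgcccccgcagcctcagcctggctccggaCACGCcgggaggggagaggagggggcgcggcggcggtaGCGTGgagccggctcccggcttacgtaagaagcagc
Mgarp: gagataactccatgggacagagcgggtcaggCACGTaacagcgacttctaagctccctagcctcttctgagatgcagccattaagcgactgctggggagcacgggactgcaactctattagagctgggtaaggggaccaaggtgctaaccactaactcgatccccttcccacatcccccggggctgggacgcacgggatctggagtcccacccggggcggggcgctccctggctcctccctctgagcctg
P4ha2: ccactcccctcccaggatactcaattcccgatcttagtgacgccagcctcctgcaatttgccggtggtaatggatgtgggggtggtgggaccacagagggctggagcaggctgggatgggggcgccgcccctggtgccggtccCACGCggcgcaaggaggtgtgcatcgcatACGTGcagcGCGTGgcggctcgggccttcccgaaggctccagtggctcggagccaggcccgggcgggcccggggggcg
Bnip3: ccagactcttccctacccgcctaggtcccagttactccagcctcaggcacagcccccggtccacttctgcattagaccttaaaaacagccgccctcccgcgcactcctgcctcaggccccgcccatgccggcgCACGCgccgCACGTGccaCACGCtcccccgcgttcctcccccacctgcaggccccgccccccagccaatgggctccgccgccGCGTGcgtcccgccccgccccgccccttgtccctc
Slc2a1: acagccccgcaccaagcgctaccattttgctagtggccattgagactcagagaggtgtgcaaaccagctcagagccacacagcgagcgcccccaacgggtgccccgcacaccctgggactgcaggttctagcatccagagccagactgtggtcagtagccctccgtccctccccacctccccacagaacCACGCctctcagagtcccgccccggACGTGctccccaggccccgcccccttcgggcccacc
CACGTG reads as ACGTG on both strands and counts 2 times. Bnip3 held 5 matches, P4ha2 3, Ak4 and Slc2a1 2 each, and Mgarp 1. Either core lay in all 10 of the called hypoxia targets that have a window (Bhlhe40, Bnip3l and Ndrg1 have no entry), in 60.1% of the windows of tested genes (4193 of 6975) and in 38.6% of all 27025 windows. ACGTG alone lay in 7 of those 10, in 23.6% of tested genes, in 32.8% of the higher genes and in 16.7% of the lower genes. For either core the shares were 66.1% of the higher and 69.7% of the lower genes. Of the 8 called glycolysis genes, which include Slc2a1, 6 held either core and 3 held ACGTG, with neither core in Hk1 or Tpi1. The hypoxia list holds genes chosen as hypoxia targets and was narrowed here to called members, so its share is a description and no test. A match describes letters in the window, not a site of binding.

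Genes at several steps of glucose uptake and glycolysis were higher. Of 14 tested genes of glucose uptake and upper glycolysis, 5 were called higher and 0 lower (median 0.54, 0.48 length-adjusted), and all 14 ratios were above 0 (12 after length adjustment). In brackets, here and below, the log2 ratio is followed by the level in vehicle and at 24 h. Besides Slc2a1, the called genes were the aldolase Aldoc (1.87, 43.4 to 158 CPM), the phosphofructokinase subunit Pfkl (1.78, 151 to 517 CPM), the hexokinase Hk1 (1.29, 73.4 to 179 CPM) and triosephosphate isomerase Tpi1 (1.28, 1014 to 2461 CPM). Of 11 tested genes of lower glycolysis and lactate export, 3 were called higher and 0 lower (median 0.69, 0.88 length-adjusted). Slc16a3, the lactate exporter MCT4, stood at 96.2 CPM in vehicle and at 149, 477, 589.8 and 485 CPM in the 2, 6, 12 and 24 h libraries. All 4 treated libraries were above vehicle and 12 h was the highest, with a 24 h ratio of 2.34, interval 2.28 to 2.39. Pgk1, phosphoglycerate kinase, stood at 712 CPM in vehicle and at 865, 1274, 2236 and 2269.8 CPM in the 2, 6, 12 and 24 h libraries, a 24 h ratio of 1.67, interval 1.65 to 1.69; its near copy Pgk1-rs7 makes the value uncertain. Eno1, an enolase, had 1.08 (1202 to 2542 CPM).

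Glycolytic enzymes also gave the largest gains in CPM among genes with an ordinary symbol. Gapdh, the glycolytic dehydrogenase often used as a reference gene, went from 3890.3 to 7147 CPM without reaching 2-fold (0.88). Lactate dehydrogenase Ldha stood at 2114 CPM in vehicle and 4108 at 24 h (0.96), and pyruvate kinase Pkm at 3467 CPM in vehicle and 5603 at 24 h (0.69). Summed over its 15 measured members, lower glycolysis took 12872 CPM in vehicle and 24223 at 24 h. The mitochondrial pyruvate carrier lay on the other side of 0, with -0.32 for Mpc1 and -0.75 for Mpc2, neither of them called. In the list of pyruvate dehydrogenase and the TCA cycle, 2 of 32 genes were higher and 0 lower; its median was -0.00035 (0.10 length-adjusted), and its sign depended on the scaling. The called pair were Pdk1 and Pdpr, a regulator of the phosphatase that reactivates pyruvate dehydrogenase, which stood at 3.81 CPM in vehicle and at 19.1, 21.1, 21.1 and 22.8 CPM in the 2, 6, 12 and 24 h libraries. Its step lay between vehicle and 2 h, and the treated libraries were close together, with a 24 h ratio of 2.56, interval 2.31 to 2.86.

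Glycogen genes had 2 of 12 called higher and 0 lower (median 0.27, 0.21 length-adjusted), among them Pgm1, which joins glycogen to glycolysis (1.51, 103 to 293 CPM). In the pentose phosphate pathway 0 of 9 were higher and 1 was lower, the lactonase Pgls (-1.05, 70.3 to 33.8 CPM). Purine and pyrimidine synthesis had no call among 19 genes (median -0.09, -0.15 length-adjusted, which turned positive on the total-count scale).

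**Figure D3:**
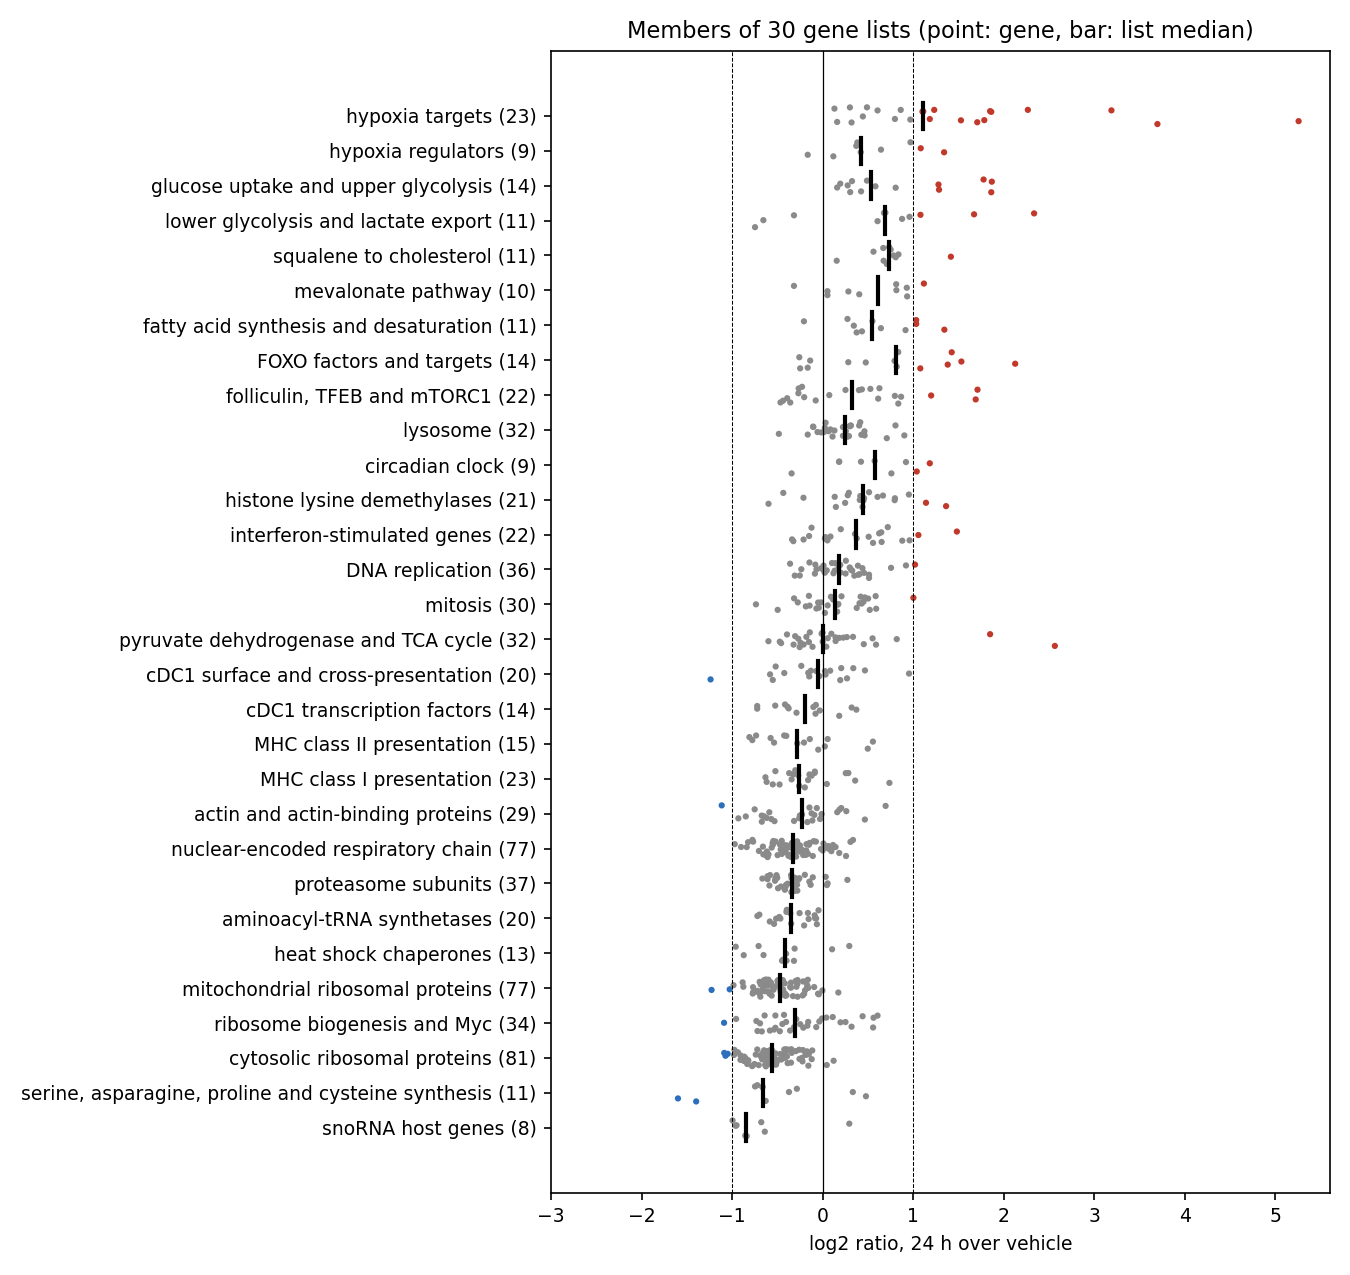
Log2 ratios of 24 h over vehicle (horizontal axis) for the tested members of 30 gene lists (rows, with the number tested in brackets); each point is a gene, red is higher and blue is lower by the call rule, black bars are list medians and dashed lines mark 2-fold. The hypoxia targets have the highest median, 1.11, and the snoRNA host genes the lowest, -0.85.

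Enzymes of sterol and fatty acid synthesis stood above vehicle in most members, few of them past 2-fold. All 11 enzymes from squalene to cholesterol had ratios above 0, also after length adjustment and on each other scale tried, with 1 called higher (median 0.73, 0.70 length-adjusted). The called one was Lss, lanosterol synthase, at 57.9 CPM in vehicle and at 91.4, 134, 180.4 and 154 CPM in the 2, 6, 12 and 24 h libraries. Every treated library was above vehicle, 12 h the most, with a 24 h ratio of 1.42, interval 1.34 to 1.49. Of the 10 mevalonate enzymes 1 was called higher (median 0.61, 0.63 length-adjusted): Acat2 (1.12, 70.3 to 153 CPM), which has the near copy Acat3. The promoter window of Lss (chr10:76531355-76531604, plus strand) held 1 GCGTG, in capitals, and is shown because Lss is the only called enzyme of the final branch. GCGTG lay in 48.5% of the windows of tested genes, in 51.1% of the higher and in 59.1% of the lower genes.
Lss: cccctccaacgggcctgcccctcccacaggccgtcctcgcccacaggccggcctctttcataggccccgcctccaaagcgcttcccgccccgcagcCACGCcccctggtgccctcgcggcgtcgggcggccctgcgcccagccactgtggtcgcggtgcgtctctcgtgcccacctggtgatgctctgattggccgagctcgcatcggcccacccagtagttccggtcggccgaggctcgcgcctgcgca

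SREBP control and cholesterol transport had 1 of 15 called higher and 0 lower (median 0.44, 0.38 length-adjusted): Stard4, a cholesterol carrier (1.21, 44.6 to 103 CPM). The SREBP retention factor Insig1 (0.88) and the lysosomal cholesterol exporter Npc1 (0.80) were above 0 and not called. Of 11 fatty acid genes 3 were called higher and 0 lower (median 0.55, 0.49 length-adjusted). These were the desaturase Scd2 (1.34, 488 to 1239 CPM), fatty acid synthase Fasn (1.03, 306 to 626 CPM) and acetyl-CoA carboxylase Acaca (1.03, 60.97 to 125 CPM). Among the 6 tested LXR and efflux genes none was called (median 0.04, 0.01 length-adjusted). In the sphingolipid list 1 of 17 was called higher, the ceramide synthase Cers4 (1.198, 4.42 to 10.2 CPM).

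Several nutrient-sensing genes were higher. Of 22 genes of the folliculin, TFEB and mTORC1 list, 3 were called higher and 0 lower (median 0.33, 0.21 length-adjusted). Flcn, folliculin, stood at 15.8 CPM in vehicle and at 29.6, 31.5, 33.6 and 51.00 CPM in the 2, 6, 12 and 24 h libraries, a 24 h ratio of 1.69, interval 1.55 to 1.83. Its partner Fnip1 stood at 8.36 CPM in vehicle and at 13.9, 15.5, 17.1 and 27.5 CPM in the 2, 6, 12 and 24 h libraries, a 24 h ratio of 1.71, interval 1.53 to 1.91. Tsc1, a brake on mTORC1, had 1.198 (20.8 to 47.7 CPM). The lysosome list had no call among 32 genes (median 0.25, 0.24 length-adjusted), with the proton pump subunit Atp6v1a the highest (0.90), and autophagy had 2 of 29 higher, Wdfy3 (1.16) and Atg2b (1.03).

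FOXO factors and targets had 5 of 14 called higher and 0 lower (median 0.81, 0.41 length-adjusted). Bcl2l11, the pro-apoptotic BH3 protein BIM, stood at 24.98 CPM in vehicle and at 35.9, 44.5, 69.9 and 109 CPM in the 2, 6, 12 and 24 h libraries. Each later library was above the one before, and the 24 h ratio was 2.13, interval 2.02 to 2.24. The others were Trp53inp1 (1.53), Txnip, a thioredoxin-binding arrestin that limits glucose uptake (1.43, 96.1 to 258 CPM), the cyclin Ccng2 (1.38) and the mTORC2 subunit Rictor (1.08). Foxo3 itself had 0.82 and Foxo1 -0.14, neither called. The arrestin Arrdc4 was also higher (1.10, 7.41 to 15.95 CPM).

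Metal handling showed single genes rather than groups. Tfrc, the transferrin receptor for iron uptake, stood at 85.7 CPM in vehicle and at 135, 219, 221 and 241 CPM in the 2, 6, 12 and 24 h libraries, a 24 h ratio of 1.49, interval 1.43 to 1.55. It was the 1 called gene of 14 in the iron and heme list, where the ferritin heavy chain Fth1 lay at -0.94 (1708 to 889 CPM). Atp7a, a copper-exporting pump (chrX:106027276-106124926, plus strand), stood at 4.79 CPM in vehicle and at 19.6, 23.7, 25.2 and 30.3 CPM in the 2, 6, 12 and 24 h libraries. It was high already at 2 h and highest at 24 h (2.65, interval 2.42 to 2.91), and it was the only call among 9 copper genes, whose median was -0.17 (0.29 length-adjusted).

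Some of the highest genes had most of their difference by 2 h. Peak1, a pseudokinase scaffold of focal adhesions (chr9:56201126-56418067, minus strand), stood at 5.34 CPM in vehicle and at 30.8, 39.97, 41.1 and 45.98 CPM in the 2, 6, 12 and 24 h libraries. The 4 treated libraries lay close together above vehicle, and the 24 h ratio was 3.09, interval 2.88 to 3.34. Plekhm3, a pleckstrin-homology domain protein (chr1:64785983-64956824, minus strand) stood at 18.7 CPM in vehicle and at 112, 111, 122 and 141 CPM in the 2, 6, 12 and 24 h libraries, again with treated libraries close together, and a ratio of 2.91, interval 2.80 to 3.04. Heg1, a transmembrane receptor needed for vessel integrity, stood at 6.83 CPM in vehicle and at 32.3, 30.8, 31.3 and 30.3 CPM in the 2, 6, 12 and 24 h libraries, with a ratio of 2.14, interval 1.94 to 2.36. Toll-like receptor Tlr9, which senses DNA in endosomes, stood at 57.1 CPM in vehicle and at 126, 122, 124 and 157 CPM in the 2, 6, 12 and 24 h libraries (1.46, interval 1.38 to 1.53) and was the only call among 16 Toll-like receptor and adaptor genes. In the focal adhesion list 3 of 24 were called higher and 0 lower (median 0.30, 0.09 length-adjusted): Peak1, the docking protein Bcar1 and vinculin Vcl (1.36, 43.6 to 112 CPM). Unlike Peak1, Bcar1 stood near its vehicle level at 2 h and higher from 6 h on, at 2.78 CPM in vehicle and at 3.56, 10.6, 19.4 and 20.9 CPM in the 2, 6, 12 and 24 h libraries (2.89, interval 2.60 to 3.24).

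Another set, picked for the highest 24 h over 12 h ratios among the higher genes, stood highest at 24 h. Of all 252 higher genes 185 were highest at 24 h, Peak1 and Plekhm3 among them. Axl, a receptor kinase of the TAM family (chr7:25757273-25788705, minus strand), stood at 3.08 CPM in vehicle and at 5.84, 5.28, 5.70 and 16.1 CPM in the 2, 6, 12 and 24 h libraries. The 2, 6 and 12 h libraries were alike and 24 h was well above them, with a ratio of 2.37, interval 2.08 to 2.70 over vehicle. Cybb, the catalytic subunit of the phagocyte NADPH oxidase, stood at 7.32 CPM in vehicle and at 8.49, 7.23, 9.44 and 19.8 CPM in the 2, 6, 12 and 24 h libraries, a ratio of 1.43, interval 1.23 to 1.65. Ephx1, an epoxide hydrolase, stood at 5.15 CPM in vehicle and at 4.07, 4.45, 5.09 and 12.2 CPM in the 2, 6, 12 and 24 h libraries, a ratio of 1.24, interval 0.99 to 1.51. These 3 were the higher genes that also differed by 2-fold or more between 12 and 24 h. The complement receptor C3ar1 (1.55, 7.26 to 21.4 CPM), the checkpoint receptor Havcr2 or TIM-3 (1.37, 8.11 to 21.1 CPM), the receptor Slamf7 (1.14, 10.9 to 24.04 CPM), the glycosyltransferase Galnt6 (1.53, 6.01 to 17.5 CPM) and the interferon-induced Ifit2 (1.48, 6.28 to 17.6 CPM) were the next in order of 24 h over 12 h. All of these but Slamf7, and Axl, Cybb and Ephx1, stood under 10 CPM in vehicle, so they entered the comparison through the 24 h library. Ifit2 and Parp14 (1.06) were the 2 called of 22 interferon-stimulated genes (median 0.37, 0.41 length-adjusted). Mfge8, a secreted bridge to dying cells, stood at 472 CPM in vehicle and 1006 at 24 h (1.09, interval 1.06 to 1.12).

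**Figure D4:**
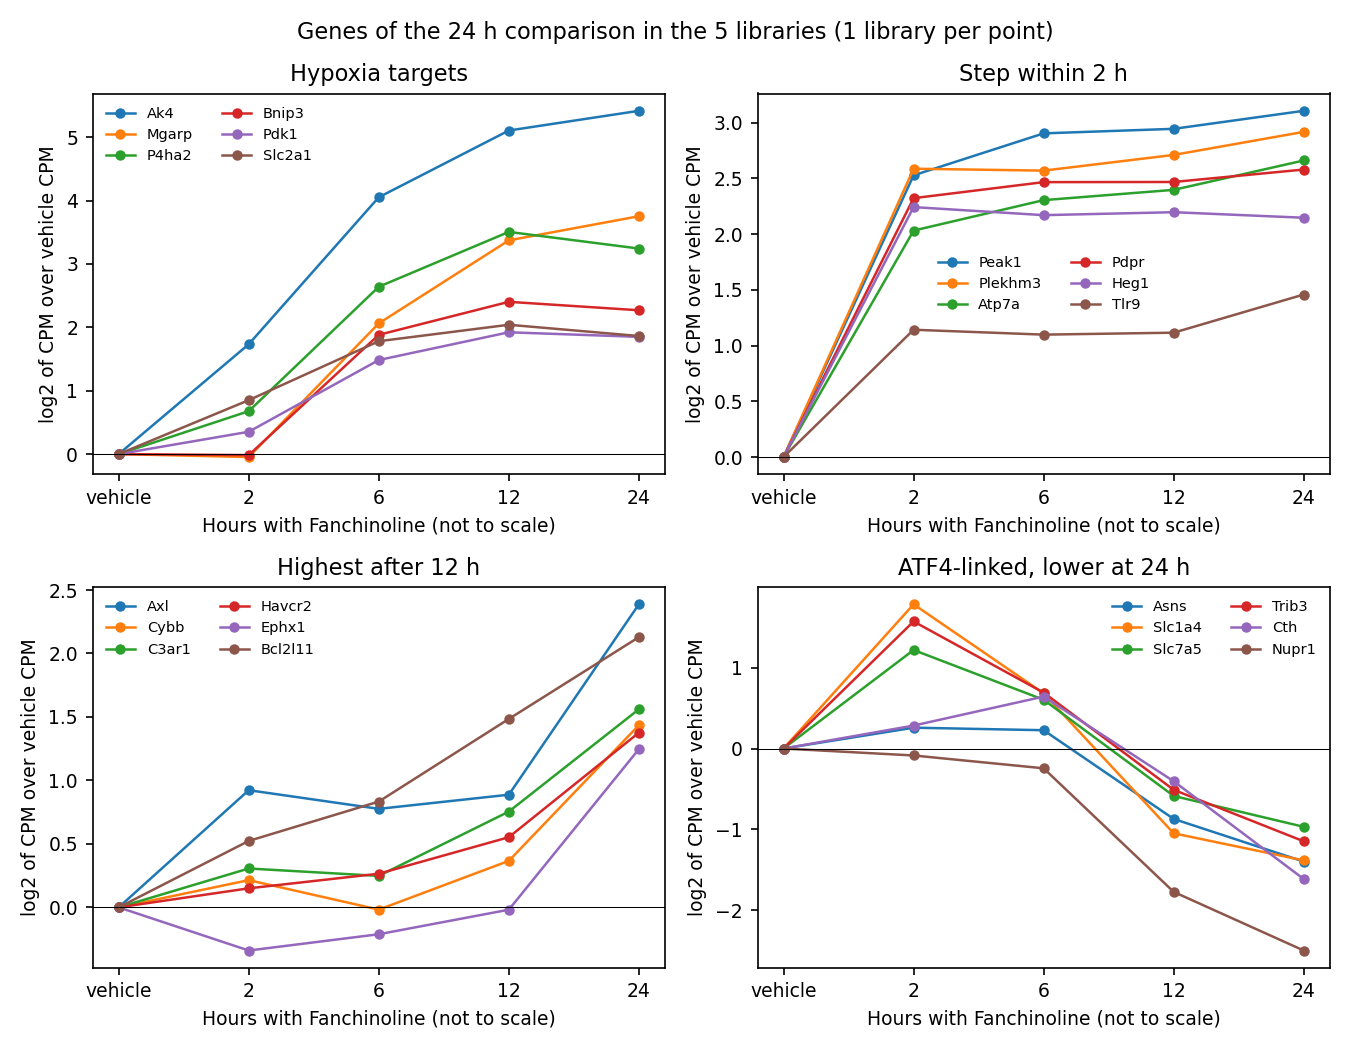
Log2 of CPM over the vehicle CPM, with no prior count (vertical axis), in vehicle and after 2, 6, 12 and 24 h with Fanchinoline (horizontal axis, not to scale), for 24 genes in 4 panels; each point is 1 library and each line a gene. The hypoxia targets are highest at 12 or 24 h. At 2 h Mgarp and Bnip3 are at their vehicle level, while Ak4 and Slc2a1 are already above it. The step genes have most of their log2 difference by 2 h, and Axl and Ephx1 stand out at 24 h. Of the 6 ATF4-linked genes 5 lie above vehicle at 2 h and below it at 24 h, with Nupr1 below vehicle throughout.

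Several genes of amino acid supply that answer to ATF4 were lower. Of 11 tested genes of serine, asparagine, proline and cysteine synthesis, 0 were called higher and 2 lower (median -0.66, -0.59 length-adjusted). Asns, asparagine synthetase, stood at 118 CPM in vehicle and at 141, 138, 64.6 and 44.8 CPM in the 2, 6, 12 and 24 h libraries. It was above vehicle at 2 and 6 h and below it at 12 and 24 h (-1.40, interval -1.48 to -1.32). Cth, which makes cysteine from cystathionine, stood at 10.04 CPM in vehicle and at 12.2, 15.7, 7.58 and 3.28 CPM in the 2, 6, 12 and 24 h libraries, a 24 h ratio of -1.60, interval -1.91 to -1.32. Among 9 tested transporters 0 were higher and 2 lower (median -0.54, -0.45 length-adjusted): Slc1a4, which carries alanine, serine and cysteine, and the glycine transporter Slc6a9 (-1.01). Of the 9 transporters, 4 had ratios above 0, the highest 0.37. Slc1a4 stood at 17.5 CPM in vehicle and at 60.4, 28.1, 8.48 and 6.72 CPM in the 2, 6, 12 and 24 h libraries, so that the same gene lay above vehicle at 2 h and below it at 24 h (-1.38, interval -1.59 to -1.18). Cth and Slc1a4 reached 10 CPM in vehicle and not at 24 h, so they entered the comparison through the library in which they were high. Bcat1, which transaminates branched-chain amino acids, had -1.32 (58.3 to 23.4 CPM).

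Regulators of the same stress pathway held 3 lower genes and no higher one. Of 15 tested regulators of the integrated stress response, 0 were higher and 3 lower (median -0.37, -0.17 length-adjusted). Ratios of 6 of the 15 were above 0, the highest that of Eif2ak2 (0.96). Nupr1, a small stress-induced nuclear protein (chr7:126623249-126630861, minus strand), stood at 11.8 CPM in vehicle and at 11.1, 9.94, 3.45 and 2.08 CPM in the 2, 6, 12 and 24 h libraries. The 12 and 24 h libraries were the low ones, with a 24 h ratio of -2.47, interval -2.85 to -2.16. The pseudokinase Trib3 stood at 22.1 CPM in vehicle and at 65.5, 35.6, 15.5 and 9.96 CPM in the 2, 6, 12 and 24 h libraries (-1.14, interval -1.32 to -0.97), and Chac1, which degrades glutathione, had -1.18 (13.4 to 5.88 CPM). Nupr1, Trib3 and Chac1 reached 10 CPM in vehicle and not at 24 h, so all 3 entered the comparison through the library in which they were high. All 20 tested aminoacyl-tRNA synthetases had ratios below 0 (15 on the total-count scale, 18 after length adjustment), from -0.72 for Cars to -0.05 for Vars, none past 2-fold (median -0.35, -0.26 length-adjusted). No gene was called among 22 of the endoplasmic reticulum chaperone list (median -0.32, -0.15 length-adjusted), 13 heat shock chaperones (-0.42, -0.37 length-adjusted) or 23 NRF2 and thioredoxin genes (-0.27, -0.10 length-adjusted). The folate list held no call among 11 genes, 6 of them above 0 (median 0.15, 0.06 length-adjusted), from Mthfd1l, a mitochondrial folate enzyme (0.63), to Shmt2, the mitochondrial serine hydroxymethyltransferase (-0.95, 474 to 245 CPM).

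Messages of protein synthesis had ratios mostly below 0 and within 2-fold. Of 81 tested cytosolic ribosomal protein genes, 79 had ratios below 0 (66 after length adjustment) and 3 were called lower, Rps24 (-1.09), Rpl35 (-1.07) and Rps26 (-1.05). The list's median was -0.56, and -0.21 after length adjustment, and its members summed to 68194 CPM in vehicle, 56798 at 2 h and 44967 at 24 h. Among 34 ribosome biogenesis genes 1 was lower, Ppan (-1.09, 124 to 58.2 CPM), and Myc had -0.69. Translation factors held no call among 35 (median -0.26, -0.21 length-adjusted). Of 8 tested snoRNA host genes 7 were below 0 and none was called (median -0.85, -0.48 length-adjusted). Of the nuclear long non-coding RNAs, Malat1 stood at 274 CPM in vehicle and at 149.9, 113, 93.2 and 81.7 CPM in the 2, 6, 12 and 24 h libraries. Vehicle was the highest library and 24 h the lowest (-1.75, interval -1.80 to -1.69).

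Ratios of mitochondrial ribosomal proteins, respiratory chain subunits and mitochondrially encoded messages were mostly below 0 and within 2-fold. Of 77 mitochondrial ribosomal proteins 76 were below 0 (72 on the total-count scale, 61 after length adjustment) and 2 were called lower, Mrps15 (-1.23) and Mrpl38 (-1.03), with a median of -0.47 (-0.32 length-adjusted). Nuclear-encoded respiratory chain subunits held no call among 77, with a median of -0.33 that was 0.02 after length adjustment. Of these 77, 14 were above 0, and 42 after length adjustment. Of the 13 mitochondrially encoded messages 12 were below 0 (10 after length adjustment) and 1 was called lower, mt-Nd6 (-1.26), with a median of -0.64 (-0.14 length-adjusted). The ribosomal RNA mt-Rnr1 stood at 309 CPM in vehicle and at 182, 174, 136 and 94.8 CPM in the 2, 6, 12 and 24 h libraries. All treated libraries were below vehicle (-1.71, interval -1.76 to -1.65). Proteasome subunits held no call among 37 (median -0.34, -0.13 length-adjusted).

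Several of the largest losses in CPM were those of actin and its binding proteins. Actb, cytoplasmic actin and a common reference gene, went from 17572 to 9758 CPM (-0.85). The actin-sequestering thymosin Tmsb4x went from 6306 to 3308 CPM (-0.93), and profilin Pfn1 from 2356 to 1088 (-1.12). Pfn1 was the only call among 29 genes, lower, and the list's median was -0.23 (-0.17 length-adjusted). On the other side of 0, the actin-severing gelsolin Gsn stood at 741 CPM in vehicle and 1199 at 24 h (0.69).

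Dendritic cell identity and antigen presentation genes mostly stayed within 2-fold. None of 15 MHC class II genes was called (median -0.28, -0.10 length-adjusted), though the invariant chain Cd74 stood at 9698 CPM in vehicle and at 7202, 6677, 6056 and 5538 CPM in the 2, 6, 12 and 24 h libraries and was lower in each later library (-0.81, interval -0.82 to -0.80). H2-Ab1, a class II chain, had -0.78 (1871 to 1092 CPM), while the class II transactivator Ciita had 0.56. MHC class I presentation held no call among 23 genes (median -0.26, -0.13 length-adjusted). The cDC1 transcription factors held none among 14, with Batf3 at -0.72 (71.7 to 43.4 CPM) and Irf8 at -0.38 (4259 to 3283 CPM). Of 20 cDC1 surface and cross-presentation genes 1 was lower, Cd8a (-1.24, 32.5 to 13.7 CPM). The 10 costimulation and migration genes held no call, with Cd83 the highest (0.32).

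Apolipoprotein L genes had the lowest list median, which rests on 2 genes. Of 13 listed, 2 reached 10 CPM and both were lower, while 11 stayed under 10 CPM and were not tested. Apol7c reached 10 CPM in vehicle and not at 24 h, so it entered through the library in which it was high. Apol7c, which in dendritic cells is linked to the handling of ingested antigen (chr15:77524852-77533316, minus strand), stood at 26.9 CPM in vehicle and at 14.2, 9.70, 8.56 and 4.66 CPM in the 2, 6, 12 and 24 h libraries. Each treated library was below vehicle and 24 h was the lowest (-2.52, interval -2.76 to -2.31). Apol10b stood at 74.97 CPM in vehicle and at 50.96, 40.8, 38.4 and 26.1 CPM in the 2, 6, 12 and 24 h libraries, with the same lowest library (-1.52, interval -1.62 to -1.42). In the macrophage-type list 1 of 10 was lower, the complement gene C1qa (-1.09, 39.4 to 18.5 CPM), and the list summed to 1019.5 CPM in vehicle and 815 at 24 h, with the growth factor receptor Csf1r at 0.93.

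Proliferation and death genes showed few calls. DNA replication had 1 of 36 higher, the polymerase Pola1 (1.02), with a median of 0.19 (0.27 length-adjusted). Mitosis had 1 of 30 higher, the checkpoint kinase Bub1 (1.002), with a median of 0.14 (0.05 length-adjusted). Mki67 had 0.59 and the inhibitor Cdkn1a 0.96, neither called. In the BCL2 family Bcl2l11 was higher and the pro-survival Bcl2a1a (-1.11) and Bcl2a1b (-1.001) were lower; these 2 are near copies of each other, which makes their split uncertain. Apaf1, the apoptosome scaffold, was the only call among 19 apoptosome and caspase genes (1.08). The DNA damage kinase Atm stood at 7.56 CPM in vehicle and at 17.4, 25.4, 24.4 and 35.6 CPM in the 2, 6, 12 and 24 h libraries, with every treated library above vehicle (2.23, interval 2.04 to 2.43).

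Regulators of chromatin, rhythm and transcription held scattered calls. Of 21 histone lysine demethylases, oxygen-using enzymes for the most part, 2 were higher, Kdm4b (1.36, 25.3 to 65.3 CPM) and Kdm5a (1.14, 22.3 to 49.3 CPM), with a median of 0.44 that was 0.12 after length adjustment. Tet2, which oxidises methylated DNA, was the only call among 9 (1.26). The Polycomb gene Phc3 stood at 5.55 CPM in vehicle and at 30.9, 33.8, 12.5 and 14.5 CPM in the 2, 6, 12 and 24 h libraries. It was highest at 2 and 6 h and lower again at 12 and 24 h, still above vehicle (1.37, interval 1.14 to 1.63). Clock genes had 2 of 9 higher, Bhlhe40 (1.18) and Ciart (1.04). NF-kB genes had 1 of 14 higher, the subunit Rel (1.17), and AP-1 genes 1 of 16 lower, Jund (-1.12). The 138 tested Zfp-named zinc fingers had 4 higher and 2 lower, with a median of 0.17 (0.03 length-adjusted).

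Other genes among the largest losses in CPM were within 2-fold. These were the elongation factor Eef1a1 (-0.45, 8133 to 5954 CPM), the chaperone Hspa8 (-0.87, 3941 to 2153 CPM), the mitochondrial carrier Ucp2 (-0.69, 3357 to 2081 CPM) and cofilin Cfl1 (-0.57, 3756 to 2535 CPM). The natriuretic peptide gene Nppc was called lower (-1.48, 14.7 to 5.25 CPM), as were Mtres1 (-1.55), Setd6 (-1.37), Erdr1 (-2.16) and Rffl (-2.63). No call was made among 36 Rab GTPases, 28 mitochondrial carriers or 12 MAPK feedback regulators. Calcium channels and pumps had 1 of 18 higher, the IP3 receptor Itpr3 (1.17, 82.2 to 185 CPM).

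Some large ratios belong to entries whose exons overlap those of a neighbour on the same strand. This held for 28 of the 252 higher genes (11.1%), 28 of the 106 lower genes (26.4%) and 828 of all tested (9.44%). When each such entry was summed with its partners, 18 of the 28 higher and 8 of the 28 lower stayed past 2-fold. Most of those that stayed had partners with almost no counts, such as Mir5114 beside Scd2, or no measured partner, as with Ep300. Their sums could hardly differ from the entry itself. Every entry, higher or lower, whose most abundant partner reached 10 CPM was within 2-fold once summed. Dpm1, a mannose-phosphate synthase, stood at 27.8 CPM in vehicle and 2.98 at 24 h (-3.20), while the overlapping Gm20716 had 0 and 29.99 CPM, at least 328-fold higher when vehicle is set at 3 counts. The 2 together summed to 27.8 and 33.0 CPM. Derpc went from 7.53 to 56.6 CPM, and with Chtf8 the sum was 228 CPM in vehicle and 227 at 24 h. The 2 entries of Nnt, a mitochondrial transhydrogenase, stood at 15.7 and 85.6 CPM in vehicle and at 82.6 and 25.3 CPM at 24 h, with sums of 101 and 108 CPM. Commd1b (-1.65, overlapping Commd1) was also within 2-fold once summed with its partners, and Rffl overlaps Lig3 on the opposite strand. These entries are uncertain, since neither the labels nor the table say how shared reads were split, and the kit does not mark strand. Counted on either strand, exon overlap held for 94 of the 252 higher genes, 53 of the 106 lower genes and 3398 of all tested. Peak1, Bnip3, Slc2a1, Pdpr and Tpi1 overlap a neighbour on the opposite strand alone. What opposite-strand overlap adds to the counts of such genes was not tested.

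The 12 h and 2 h libraries enter neither side of the ratio, so their own ratio is a separate measurement in the same cell line. Of the 252 higher genes 232 (92.1%) had a 12 h over 2 h ratio above 0, beside 51.9% of all genes, and their median was 0.37 against 0.0099. Of the 106 lower genes 91 (85.8%) were below 0, beside 48.1% of all genes, with a median of -0.45. After adjustment for length and GC content the counts were 221 and 96. Higher genes that were not above 0 included Axl, Heg1, Tlr9 and Phc3, and the lower genes not below 0 included Rps24 and mt-Nd6, all chosen here after their values were seen. Across the 5 libraries, 185 of the higher genes were highest at 24 h and 92 of the lower genes were lowest at 24 h.

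**Figure D5:**
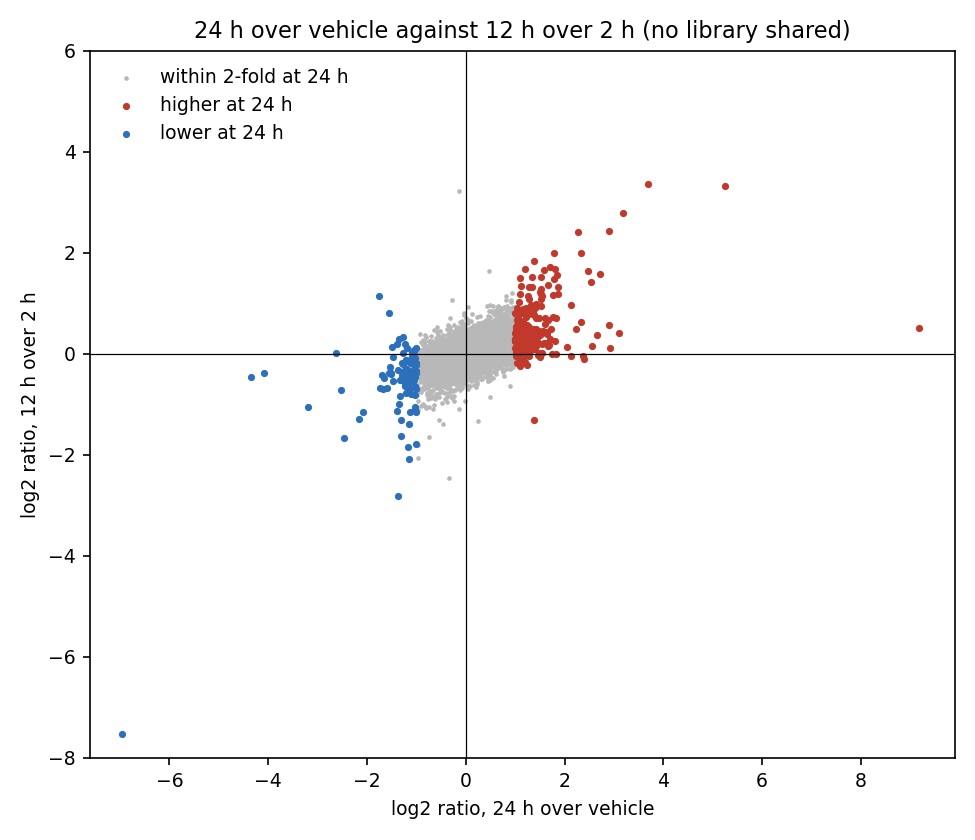
Log2 ratio of 12 h over 2 h (vertical axis) against that of 24 h over vehicle (horizontal axis) for the 8768 genes; each point is a gene, red is higher and blue is lower at 24 h. Most red points lie above 0 on the vertical axis (232 of 252) and most blue points below it (91 of 106), and the 2 ratios share no library.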

How the data were processed

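Poly-A RNA-seq was made from MutuDC cells in 5 libraries, 1 per time point, with the TruSeq v2 kit and TRIzol extraction, per the labels' protocols. The authors deposited raw counts per gene. Trim Galore, HISAT2 and the build GRCm38 are listed, without roles or versions, per the submitters' processing notes. No source used here names the read counter, its annotation or its strand setting. The design text speaks of triplicates, while the table holds 1 column per time point, and whether these pool samples is not stated.

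From the deposited counts, TMM factors over the 5 libraries (0.977 to 1.05) and log2 CPM with a prior count of 2 were computed (edgeR 4.0.16, limma 3.58.1, R 4.3.3). Intervals came from SciPy 1.17.1, and the size rule was tested on simulated data. The simulation held counting error alone and no spread between libraries. It therefore does not show how often libraries treated alike would differ by 2-fold. Positions, lengths and GC content came from GENCODE on GRCm38, where 99.9% of tested genes were found. The length- and GC-adjusted ratio subtracts a loess curve (span 0.3) fitted over all tested genes. The limit that 0 counts set is 3 counts, which is 0.0915 CPM in vehicle and 0.0703 at 24 h.

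Members, gene lists and rules were chosen with earlier results of these data known. Named genes were the 15 highest and 15 lowest called genes with an ordinary symbol, the 12 largest gains and 12 largest losses in CPM, the 8 highest and 8 lowest 24 h over 12 h ratios among called genes, and for each list the 4 or fewer members whose ratio was farthest from 0. Other genes named make up a count or a pathway, and they were chosen with their values in view. A few genes that the rule picks are not reported. Where a symbol had several entries, lists used the one with the most counts. Other scalings (DESeq2 1.42.0 size factors, TMM over the 2 libraries, total counts), prior counts, filters and fold limits were tried. So were the length adjustment and leaving out genes that share exon positions on the same strand.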

Additional observations from a re-analysis of the deposited data

How the results depend on the processing

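Calls rest on 1 library per side, so leaving out a replicate and a replicate block were not possible. No paired analysis was possible because each group holds 1 library. Of the 11 settings run, only the length and GC adjustment could have reversed the direction of a called gene. The filters, the fold limit and leaving out genes keep the same ratio. The prior counts change only its size, and the other scalings shift all genes together by far less than 2-fold. Under the adjustment no called gene that the naming rule picks changed direction, and 4 uncalled ones changed sign. DESeq2 size factors gave 266 higher and 95 lower genes, and prior counts of 0.5 and 10 gave 253 and 244 higher. Leaving out genes that share exon positions on the same strand gave 224 higher and 78 lower. Counts of genes higher at 24 h over vehicle, genes lower at 24 h over vehicle, higher genes moving the same way in 12 h over 2 h and lower genes moving the same way in 12 h over 2 h moved by over 1.5 times in these cases. Total-count scaling left 70 genes lower, 60 of them below 0 in 12 h over 2 h. A minimum of 1 CPM in either library gave 510 higher and 319 lower, with 415 and 250 on the same side of 0 in 12 h over 2 h. A minimum of 10 CPM in both gave 59 lower, 49 of them on the same side, beside 172 higher. With no filter there were 904 and 849, with 612 and 518 on the same side. At 1.5-fold there were 1074 and 779, with 901 and 633. Length and GC adjustment gave 156 higher genes, 142 on the same side. Bcl2a1b and Slc6a9 fell short of 2-fold with DESeq2 size factors and, with Bub1, at a prior count of 10. Leaving out near copies was not run, since the copies could not be identified from the annotation used.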
